A study of Mus musculus with 40 samples.

Results

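The transcripts described here come from ERV1 elements of the mouse genome other than the murine leukaemia virus group. The deposited table of transposable element (TE) counts holds 1146 subfamilies, and 149 of them are assigned to the ERV1 family. RLTR4_MM-int, RLTR4_Mm, MuLV-int and RLTR6_Mm, the leukaemia virus rows, were left out, which gave 145 members. Of these, 28 are internal parts by name (ending in -int) and 117 are long terminal repeats (LTRs) or other rows. By the prefix or suffix of the name, 54 were sorted as rodent names and 91 as other names. The other names include RodERV21-int, MERV1_I-int and MLTR14, so this split does not part rodent from older elements.

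ERV1 elements are class I endogenous retroviruses, the germline copies of viruses related to gammaretroviruses. A full copy carries 2 LTRs, which hold the promoter, around an internal part with the remains of the gag, pol and env genes, and most copies are reduced to a lone LTR. In somatic cells they are kept silent by DNA methylation and by histone H3 lysine 9 methylation, which KRAB zinc finger proteins, Trim28 and Setdb1 bring to them. VL30 elements, the source of MMVL30-int, do not code for functional viral proteins and are known for being transcribed in many mouse cell types and packaged into retroviral particles. GLN elements (MMERGLN) are another rodent ERV1 lineage.

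The 40 libraries, in 12 groups, hold RNA of mouse bone marrow cells. Long-term and short-term haematopoietic stem cells (LT-HSC and ST-HSC), common and granulocyte-macrophage progenitors (CMP/GMP, sorted as 1 population) and megakaryocyte-erythroid progenitors (MEP) were each taken from wild-type (WT) and Dnmt3a knockout (KO) mice, with 4 libraries per group and 3 of MEP WT. Unfractionated c-kit+ cells, a mixed progenitor fraction, came from WT (2 libraries), Dnmt3a KO (2), Sting KO (2) and Dnmt3a/Sting double knockout (DKO, 3) mice. Dnmt3a is a de novo DNA methyltransferase, and Sting, encoded by Tmem173, is the adaptor through which cytosolic DNA triggers interferon. The Dnmt3a KO is described as floxed Dnmt3a (Dnmt3a f/f) with Mx1-Cre, in which interferon switches on the recombinase that deletes the floxed part. The sources used here do not give how Cre was induced, whether WT mice carried Cre or were treated alike, or the age and number of mice. P-values therefore measure only the spread between these libraries, which may be technical.

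Gene reads ranged from 3.44 to 47.7 M (1e6 reads) in the 32 libraries with gene counts, and TE reads from 0.392 to 3.64 M in all 40. TE reads made up 2.22 to 12.4 per 100 gene reads. They exceeded 9 per 100 in 5 libraries, LT-HSC WT 1, LT-HSC KO 2 and MEP KO 2, 3 and 4. In LT-HSC WT 1 the granulocyte-macrophage gene Mpo stood at 1378 CPM (reads per 1e6 gene reads), against 0.913 to 3.87 CPM in the other LT-HSC WT libraries. MEP markers (5 genes summed) reached 3040 to 6313 CPM in MEP KO and 8096 to 10702 CPM in MEP WT. The gene reads of Dnmt3a fell in c-kit+ Dnmt3a KO cells, where its 2 libraries stood at 48.3 and 48.9 CPM and those of WT at 91.1 and 79.9 CPM (log2 difference -0.81, edgeR adjusted p = 0.0321). In the sorted KO populations Dnmt3a was lower on average but did not pass the test (edgeR adjusted p = 1 in LT-HSC, 0.298 in CMP/GMP and 0.576 in MEP), and 119 CPM in LT-HSC KO 3 lay above 3 of 4 WT libraries. The library labelled MEP KO 2, at 41.9 CPM, lay above MEP WT 3 and 4 (32.1 and 29.4 CPM), while MEP KO 3 and 4 were at 1.64 and 1.16 CPM. Counts over the whole gene also include reads outside a deleted part. Tmem173 stood at 9.61 to 11.7 CPM in Sting KO and DKO cells and at 43.8 to 65.1 CPM in the other c-kit+ libraries. Libraries of LT-HSC, CMP/GMP, MEP and c-kit+ cells differed in sex within most groups: Xist marked KO 3 and 4 of each sorted population, WT 3 and 4 of LT-HSC and MEP, CMP/GMP WT 3, c-kit+ Dnmt3a KO 1 and 2 and DKO 1, and Y transcripts marked the rest.

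The rodent internal parts MMVL30-int and MMERGLN-int had the most reads among the members on average. MMVL30-int took a mean of 0.777% of TE reads over the 40 libraries and MMERGLN-int 0.322%. RMER5 (0.105%), MLTR14 (0.0823%), RLTR6-int (0.0805%), RLTR1B-int (0.049%), MMERGLN_LTR (0.0365%), LTRIS3 (0.0306%), LTRIS2 (0.0306%) and RLTR14 (0.0276%) followed. These 10 subfamilies held 51.1% to 91.9% of the member reads of a library. At the other end, 8 members had 0 reads in all libraries, 32 had under 100 reads in total, and 49 had at least 1 read in every library. Shares of reads do not rank subfamilies by expression, because the copy number and length behind each row are not in the tables.

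The part of TE reads taken by all 145 members differed between populations. It was 0.883% to 1.41% in LT-HSC WT, 1.07% to 1.51% in ST-HSC WT, 1.58% to 2.97% in CMP/GMP WT, 2.85% to 3.6% in MEP WT and 2.6% to 2.98% in c-kit+ WT cells. Every MEP WT and c-kit+ WT library was above every stem cell WT library, and CMP/GMP WT 3 was the lowest of its group. Internal parts made up 41.5% ± 2.86 (SD, n = 4) of member reads in LT-HSC WT, 37.4% ± 6.73 (n = 4) in ST-HSC WT, 68.2% ± 7.26 (n = 4) in CMP/GMP WT and 79.7% ± 3.61 (n = 3) in MEP WT. The 91 members with other names varied less, at 1799 to 3363 reads per 1e6 TE reads in LT-HSC WT, 2376 to 2829 in CMP/GMP WT and 2362 to 3155 in MEP WT. These groups overlapped. In bulk samples, fewer cells of a type and less RNA per cell cannot be told apart.

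**Figure D1:**
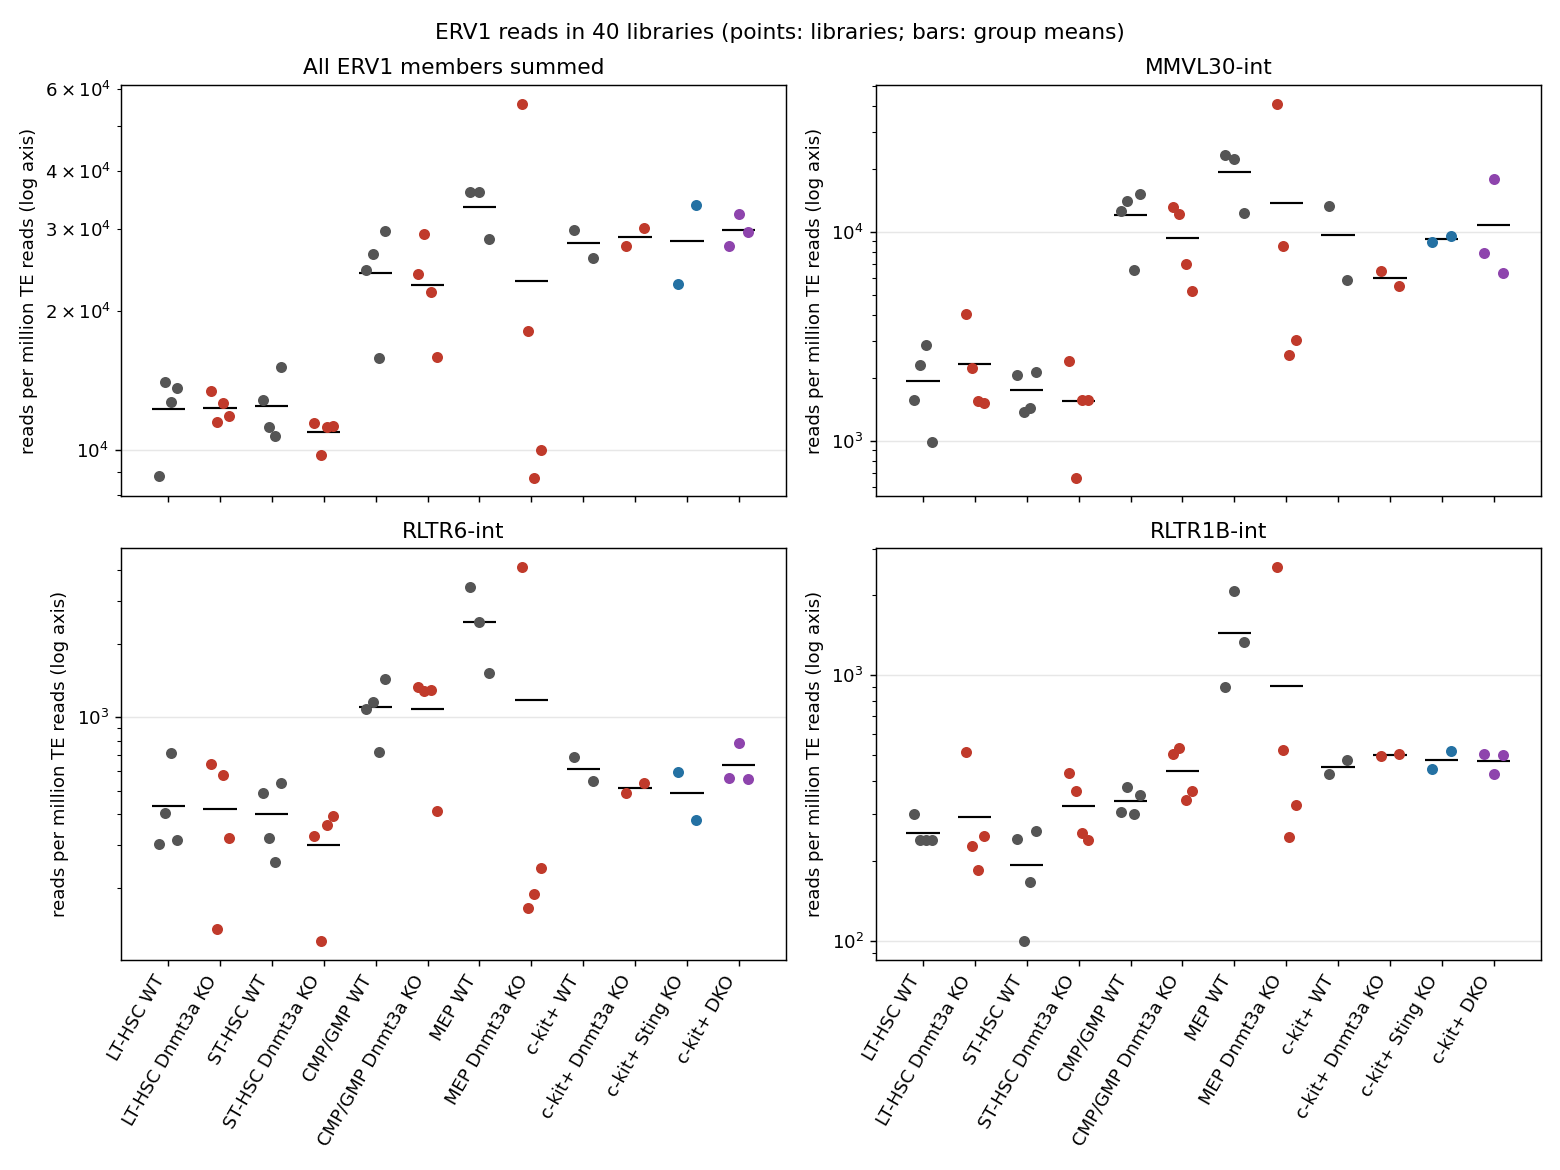
Reads per 1e6 TE reads (log axis) for all 145 members summed and for MMVL30-int, RLTR6-int and RLTR1B-int, with 1 point per library and a bar at each group mean. MMVL30-int lay between 12331 and 23247 in MEP WT and between 981 and 2871 in LT-HSC WT, and MEP KO 1 stood above the other MEP KO libraries in all panels on this scale.

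MMVL30-int was higher in both progenitor populations than in LT-HSC of WT mice, and RLTR6-int was higher in MEP than in LT-HSC. MMVL30-int stood at 194, 95.5, 166 and 63.8 CPM in LT-HSC WT 1 to 4. It stood at 485, 529, 218 and 596 CPM in CMP/GMP WT 1 to 4, and at 1128, 640 and 515 CPM in MEP WT 1, 3 and 4. The LT-HSC libraries were below all others, and CMP/GMP WT 3 lay nearest to them. The rise was 1.98 on the log2 scale in CMP/GMP (SE 0.42, edgeR adjusted p = 0.0421) and 2.74 in MEP (SE 0.448, adjusted p = 0.0122). Between MEP and CMP/GMP MMVL30-int differed by 0.76 (SE 0.434, adjusted p = 0.999), with groups that overlapped.

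RLTR6-int, an internal part listed with the RLTR6 group of rodent LTRs, stood at 37.4, 16.9, 41.1 and 20.4 CPM in LT-HSC WT and at 165, 70.4 and 63.7 CPM in MEP WT. All MEP WT libraries were above all LT-HSC WT libraries, with MEP WT 1 the highest. The rise was 1.98 on the log2 scale (SE 0.427, edgeR adjusted p = 0.0402). CMP/GMP WT stood at 24.1 to 56.8 CPM, overlapping LT-HSC WT and below all MEP WT libraries.

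RLTR1B-int, another rodent internal part, separated MEP from CMP/GMP without passing the test. It stood at 44.0, 59.7 and 55.8 CPM in MEP WT and at 11.8, 14.4, 9.99 and 14 CPM in CMP/GMP WT 1 to 4. The groups did not overlap, and the difference was 2.11 on the log2 scale (SE 0.406, edgeR adjusted p = 0.0736). It passed in DESeq2 (adjusted p = 0.00122) and without LT-HSC WT 1 (adjusted p = 9.849e-05), a library that shares only the estimate of spread. RLTR6C_Mm, an LTR, went the other way, with 0.471, 0.0278 and 0.864 CPM in MEP WT against 4.06 to 7.39 CPM in CMP/GMP WT (log2 difference -3.57, SE 0.933, adjusted p = 0.339).

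In CMP/GMP against LT-HSC, 1 of 94 members tested was called higher and 0 lower, at an edgeR adjusted p under 0.05, while 0.207% of all TE subfamilies were called higher and 0.518% lower. In MEP against LT-HSC, 2 of 94 were called higher and 0 lower, against 0.311% in each direction over all TE subfamilies. No member was called between MEP and CMP/GMP, where edgeR called 0% of TE subfamilies in either direction. There, 7 members had an unadjusted p under 0.05 and DESeq2 called 2. The share DESeq2 called over all TE subfamilies is not given here, so its count is not read as particular to ERV1. The median log2 difference of the members was -0.56 in CMP/GMP and -0.43 in MEP relative to LT-HSC, beside -0.79 and -0.75 for all TE subfamilies tested. With TE library sizes in place of gene library sizes, those medians over all subfamilies became -0.0026 and 0.0067, and MMVL30-int was higher by 2.72 and 3.46.

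The count of called members rested on single libraries. Without LT-HSC WT 2, 20 members (2 higher, 18 lower) were called in CMP/GMP and 14 (4 higher, 10 lower) in MEP. The shares called over all TE subfamilies in this and the following refits are not given here. The counts therefore show how far the calls moved, and not a change particular to ERV1. Without LT-HSC WT 1 the counts were 3 and 4, MMVL30-int rose by 2.26 and 3.02, and RLTR6-int by 2.15. Leaving out any CMP/GMP WT library, LT-HSC WT 3 or 4, or MEP WT 3 or 4 took the CMP/GMP count to 0, and leaving out MEP WT 1 took it to 2. In MEP the count was 0 without MEP WT 1, and 1 without MEP WT 3 or CMP/GMP WT 1, 2 or 4. RLTR6-int also missed the threshold without LT-HSC WT 4 (adjusted p = 0.0905), and MMVL30-int in MEP without MEP WT 1 (adjusted p = 0.0562). The MMVL30-int estimate stayed between 1.69 and 2.26 in CMP/GMP and between 2.35 and 3.02 in MEP. Scaling by RLE size factors called 5 members in CMP/GMP (1 higher, 4 lower) and 1 in MEP, where RLTR6-int had an adjusted p of 0.0587.

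**Figure D2:**
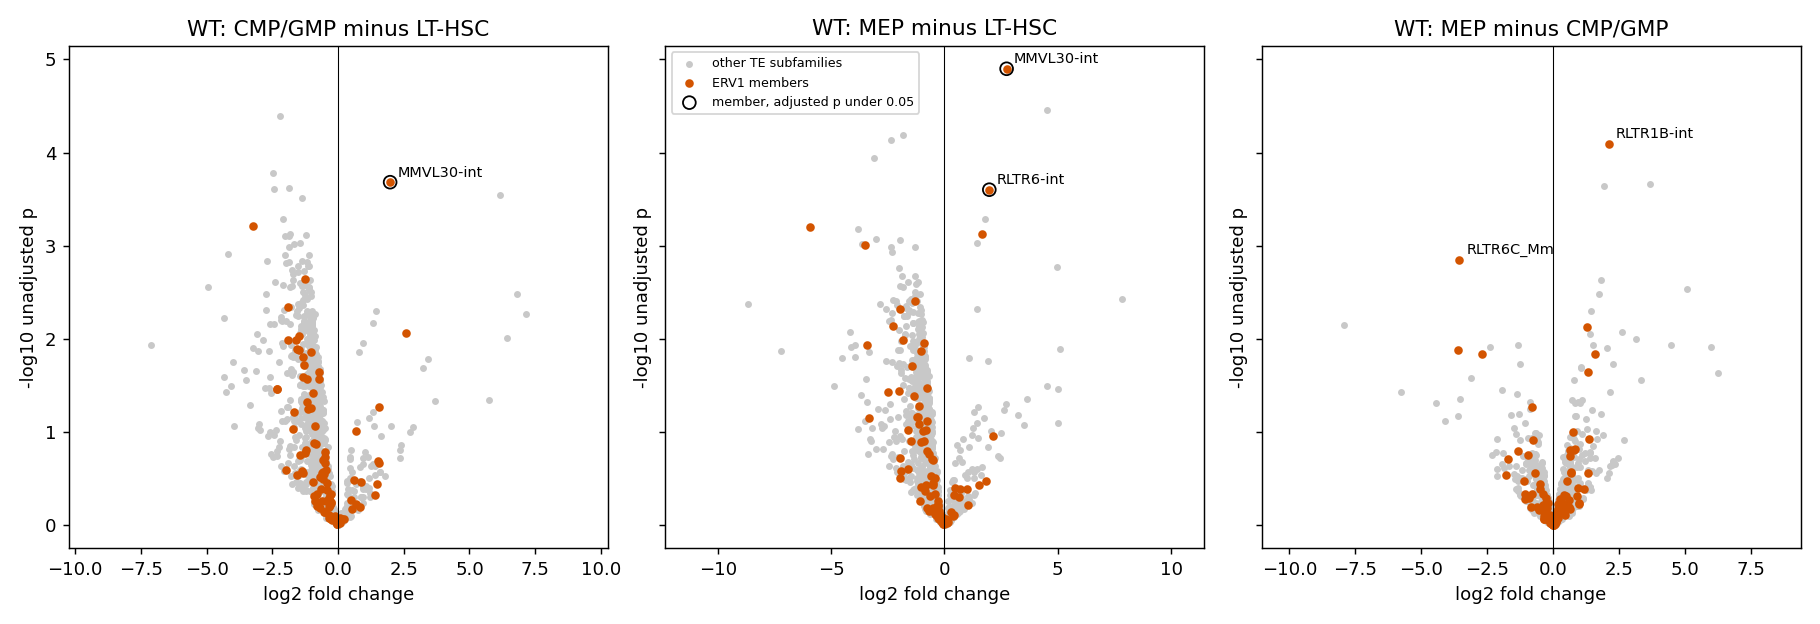
Log2 difference (x axis) against -log10 of the unadjusted p (y axis) for every TE subfamily tested in 3 comparisons of WT populations; orange points are the 94 ERV1 members, and circles mark members with an adjusted p under 0.05. MMVL30-int (1.98 and 2.74) and RLTR6-int (1.98) are the circled members against LT-HSC, while most other points of those 2 panels lie left of 0 on the gene-read scale.

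ST-HSC and LT-HSC of WT mice were compared on TE totals, since no gene column could be assigned to ST-HSC. MMVL30-int stood at 2055, 1371, 1425 and 2120 reads per 1e6 TE reads in ST-HSC WT and at 1563, 2296, 2871 and 981 in LT-HSC WT. The groups overlapped (log2 difference -0.19, SE 0.283, edgeR adjusted p = 0.993). RLTR1B and RLTR1D, LTRs of the RLTR1 group, had the smallest p-values, with log2 differences of -0.93 (SE 0.408) and 0.94 (SE 0.418) and an adjusted p of 0.993 for both. Of 93 members tested, 0 were called by edgeR (0% of all TE subfamilies in either direction) and 0 by DESeq2, and 2 had an unadjusted p under 0.05.

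The series' design text names the comparison of Dnmt3a-deleted with WT stem and progenitor cells. No member passed the test in any of the 4 populations. The levels of the 10 leading members overlapped between genotypes, except RLTR14 in MEP per 1e6 TE reads, at 204, 28.1, 113 and 131 in KO and 274, 225 and 293 in WT. Its CPM overlapped. MMVL30-int stood at 154, 274, 127 and 79.6 CPM in LT-HSC KO, where KO 2 was above all WT libraries and the others lay among them (log2 difference 0.31, SE 0.525, edgeR adjusted p = 0.998). In CMP/GMP KO it stood at 337, 364, 287 and 167 CPM, so that KO 4 was below all WT libraries and the others were above WT 3 alone (log2 difference -0.66, SE 0.26, adjusted p = 0.622). In MEP KO it stood at 911, 975, 277 and 284 CPM, so that KO 1 and 2 lay within the WT range and KO 3 and 4 below it (log2 difference -0.23, SE 0.672, adjusted p = 0.844). In ST-HSC KO it stood at 2403, 666, 1556 and 1568 reads per 1e6 TE reads (log2 difference -0.17, SE 0.298, adjusted p = 0.959).

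In LT-HSC, 0 of 88 members tested were called by edgeR, 1 had an unadjusted p under 0.05, and DESeq2 called 0. Over all TE subfamilies edgeR called 0% in either direction, and the median log2 difference was -0.02 for members and 0.05 for all. The smallest p-values belonged to MER57C2, an LTR, and MER92-int, an internal part. MER57C2 stood at 0.0289, 1.83, 1.11 and 0.338 CPM in KO and at 7.92, 1.78, 3.61 and 4.43 CPM in WT. KO 2 was the one KO library above the lowest WT library (log2 difference -2.41, SE 1.11, adjusted p = 0.998). MER92-int stood at 0.665, 27.2, 7.06 and 2.51 CPM in KO and at 5.97, 1.43, 1.42 and 0 CPM in WT, with KO 2 far above the rest (log2 difference 2.11, SE 1.2, adjusted p = 0.998). LT-HSC KO 2 held 12.3 TE reads per 100 gene reads, and without the libraries above 9 the MER92-int difference was 1.82.

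ST-HSC gave 0 calls of 95 members in edgeR (0% of all TE subfamilies in either direction) and 0 in DESeq2, with 3 members under an unadjusted p of 0.05 and medians of -0.07 for members and -0.02 for all. RLTR1B-int stood at 427, 366, 254 and 240 reads per 1e6 TE reads in KO and at 243, 99.9, 167 and 260 in WT. KO 1 and 2 were above all WT libraries, and KO 3 and 4 overlapped them (log2 difference 0.78, SE 0.341, adjusted p = 0.847). MER89 stood at 4.34, 7.69, 18.6 and 17.7 in KO and at 21.4, 25.6, 19.6 and 108 in WT on the same scale. All KO libraries were below all WT libraries, and WT 4 was far above the others (log2 difference -1.83, SE 0.81, adjusted p = 0.847). Without WT 4 the MER89 difference was -0.88.

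CMP/GMP gave 0 calls of 88 members in edgeR (0% of all TE subfamilies in either direction) and 0 in DESeq2. An unadjusted p under 0.05 was found for 8 members, 28 of the 88 estimates were above 0, and the medians were -0.23 for members and -0.20 for all. With TE library sizes they were -0.0113 and -0.0109. RLTR1A2_MM stood at 1.18, 1.14, 1.32 and 2.28 CPM in KO and at 1.05, 13.5, 0.662 and 14.1 CPM in WT 1 to 4. WT 2 and 4 were high and WT 1 and 3 overlapped KO (log2 difference -2.29, SE 0.697, adjusted p = 0.448). WT 2 and 4 were also the most alike libraries of their group over TE subfamilies (r = 0.991 on log2 values, across subfamilies), although their counts differed beyond sampling noise (chi-square per degree of freedom 20.8). Pairs of sorted libraries with a higher r were ST-HSC KO 3 and 4 (r = 0.997, chi-square per degree of freedom 5.18) and MEP KO 3 and 4 (r = 0.993 on TE subfamilies, 133.9), whereas the other MEP KO pairs had r from 0.826 to 0.844. Each pair differed beyond sampling noise and was counted as 2 libraries, but this does not show that they come from separate mice. On genes, MEP KO 3 and 4 had a chi-square per degree of freedom of 24.3, against 166 to 842 in the other MEP KO pairs. On TE subfamilies the other MEP KO pairs had 86.4 to 466, so the 133.9 of KO 3 and 4 did not set them apart. The other ST-HSC KO pairs had 46.1 to 175.5 on TE subfamilies. Whether such pairs are independent cannot be told, and the tests treat them as if they were.

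MEP gave 0 calls of 81 members in edgeR (0% of all TE subfamilies in either direction), with 7 under an unadjusted p of 0.05, and DESeq2 called 3. The share DESeq2 called over all TE subfamilies is not given here, so its count is not read as particular to ERV1. The 7 members include MER66-int, which passed the filter on low counts only through KO 2, 3 and 4 and so lends no support. MER110, MER31-int and LTR48 are also among the 7, with 23 to 57 reads in each WT library. In KO 1 to 4, MER110 had 7, 0, 0 and 0 reads, MER31-int 8, 0, 0 and 2, and LTR48 13, 0, 0 and 1. They passed the filter through WT, where they were high, so they lend no support either. Of the estimates, 56 were above 0, and the medians were 0.76 for members and 0.83 for all. With TE library sizes they were -0.14 and -0.0149. MEP KO 1 differed from the other KO libraries: it held 2.22 TE reads per 100 gene reads, against 11.4, 10.8 and 9.41 in KO 2, 3 and 4. Without KO 1, 17 members were called (12 higher, 5 lower). The share called over all TE subfamilies in that fit is not given here, so the count is not read as particular to ERV1. Without KO 2, 3 and 4, which leaves KO 1 alone in its group, the median over all subfamilies was -0.88. KO 2 was also shallow, with 3.44 M gene reads. The part of these library differences in the genotype comparison was not tested.

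MER66-int and RLTR6B_Mm are named for MEP by the rule of smallest p. MER66-int, an internal part, had 0, 76, 119 and 130 reads in KO 1 to 4 and 0 reads in each WT library. It passed the filter on low counts only through KO 2, 3 and 4, so its p is not given. RLTR6B_Mm, an LTR, stood at 2.7, 22.7, 29.2 and 29.8 CPM in KO and at 5.62, 2.11 and 3.21 CPM in WT. KO 2, 3 and 4 were high and KO 1 lay among WT (log2 difference 2.71, SE 0.909, adjusted p = 0.27). Without the libraries above 9 TE reads per 100 gene reads the RLTR6B_Mm difference was -0.39. RLTR6-int stood at 91.6 CPM in KO 1 and at 18.9, 20.4 and 22.7 CPM in KO 2, 3 and 4, against 63.7 to 165 CPM in WT, so that KO 1 lay within WT and the others below it. RLTR1B-int stood at 56.7, 59.9, 26.6 and 30.6 CPM in KO 1 to 4, against 44 to 59.7 CPM in WT, with KO 3 and 4 below WT and KO 1 and 2 near its upper end.

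The effect of Dnmt3a loss was also compared between LT-HSC, CMP/GMP and MEP with an F-test. Of 105 members tested, 0 were called by edgeR (0% of all TE subfamilies) and 0 by DESeq2, and 13 had an unadjusted p under 0.05. The named members, both among the 13, are MER66-int and MER95. MER66-int, described above, had 0 reads in each MEP WT library, so its place among the 13 lends no support. MER95 had 0 reads in the MEP KO libraries and 4, 0 and 17 reads in MEP WT. It also had 0 reads in each LT-HSC WT library, and reads in KO 4 alone of LT-HSC KO and in KO 3 alone of CMP/GMP KO. Its place among the 13 therefore lends no support either. Without MEP KO 1, 7 members were called, and the share over all TE subfamilies in that fit is not given here.

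**Figure D3:**
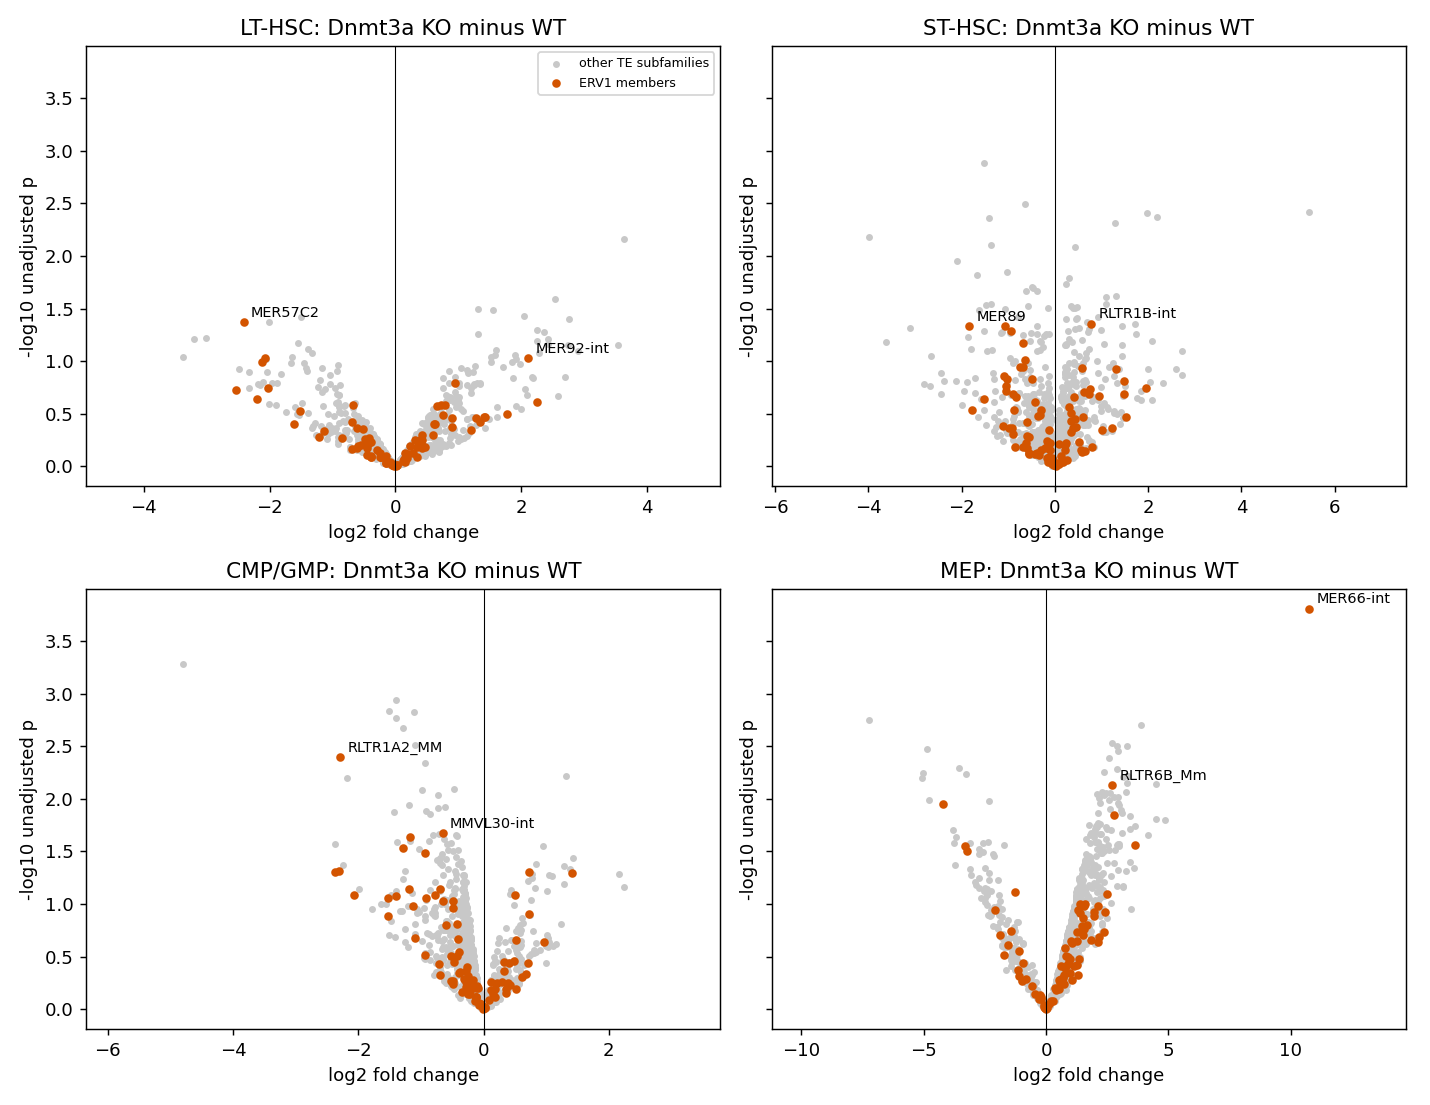
Log2 difference, Dnmt3a KO minus WT (x axis), against -log10 of the unadjusted p (y axis) for every TE subfamily tested in each sorted population, with ERV1 members in orange and the 2 members of smallest p named. No member had an adjusted p under 0.05. MER66-int in MEP is placed by a fitted value against 0 reads in WT, so its position measures neither its fold change nor the evidence for one.

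The c-kit+ cells add loss of Sting alone and together with Dnmt3a. Member reads summed to 2.6% and 2.98% of TE reads in WT, 2.76% and 3.01% in Dnmt3a KO, 2.28% and 3.37% in Sting KO and 2.76%, 3.23% and 2.95% in DKO. The genotypes overlapped, and the members as a group moved little. The WT libraries held MMVL30-int at 462 and 183 CPM, those of Dnmt3a KO at 230 and 205, those of Sting KO at 288 and 321 and those of DKO at 264, 647 and 220. WT 1 and DKO 2 were the 2 highest libraries, and every other value lay between 183 and 321 CPM. Log2 differences were -0.56 (SE 0.418) for Dnmt3a KO and -0.04 (SE 0.416) for Sting KO against WT, 0.86 (SE 0.391) for DKO against Dnmt3a KO and 0.33 (SE 0.383) for DKO against Sting KO, with edgeR adjusted p from 0.524 to 0.999.

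For Dnmt3a KO against WT, 0 of 94 members were called by edgeR, beside 0.218% of all TE subfamilies higher and 0.109% lower, with 7 under an unadjusted p of 0.05 and 0 called by DESeq2. The medians were 0.13 for members and 0.16 for all. MURVY-LTR is named for a retrovirus-like repeat of the mouse Y chromosome, and its Dnmt3a KO libraries held 6.31 and 5.43 CPM and its WT libraries 3.81 and 3.8 CPM. Both KO libraries were above both WT libraries (log2 difference 0.63, SE 0.167, adjusted p = 0.0928). Both Dnmt3a KO libraries hold Xist transcripts and both WT libraries Y transcripts, so that genotype and sex cannot be told apart in this pair. DKO 1, with Xist, stood at 4.36 CPM, and DKO 2 and 3, with Y transcripts, at 4.23 and 5.13 CPM. MURVY-LTR thus spanned 3.67 to 5.13 CPM in the 6 c-kit+ libraries with Y transcripts and 4.36 to 6.31 CPM in the 3 with Xist. When the 2 groups were fitted alone, 5 members were called (4 higher, 1 lower), MURVY-LTR among them (edgeR adjusted p = 0.0217). The share called over all TE subfamilies in that fit is not given here.

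Sting KO against WT also gave 0 calls of 94, beside 0.109% higher and 0.109% lower of all TE subfamilies (edgeR), with 5 members under an unadjusted p of 0.05 and 0 called by DESeq2. RLTR30B_MM, an LTR, stood at 1.43 and 1.89 CPM in Sting KO and at 3.13 and 2.58 CPM in WT. Both KO libraries were below WT (log2 difference -0.74, SE 0.226, adjusted p = 0.416). MER34B-int, an internal part, had 344 and 36 reads in Sting KO, 323 and 15 in Dnmt3a KO, 292, 306 and 379 in DKO and 22 and 23 in WT. The 9 libraries thus fell into 5 with 292 to 379 reads and 4 with 15 to 36, a split that crossed Dnmt3a KO and Sting KO. Its log2 difference from WT was 3.09 (SE 0.957, adjusted p = 0.416) in Sting KO and 2.94 (SE 0.965, adjusted p = 0.205) in Dnmt3a KO. Without Dnmt3a KO 1 the latter was -0.24.

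DKO was compared with each single knockout. Against Dnmt3a KO, 0 of 94 members were called, beside 0% higher and 0.109% lower of all TE subfamilies, with 5 under an unadjusted p of 0.05 and 0 called by DESeq2. The LTRs MER34 (log2 difference -0.72, SE 0.251) and LTRIS4A (-1.01, SE 0.36) had the smallest p-values, with an edgeR adjusted p of 0.776 for both. LTRIS4A rested on 9 to 18 reads in DKO and 24 and 32 reads in Dnmt3a KO. Against Sting KO, 0 of 94 were called, beside 0% higher and 0.328% lower, with 7 under an unadjusted p of 0.05 and 0 called by DESeq2. RLTR48B stood at 3.07, 4.07 and 3.57 CPM in DKO and at 2.06 and 2.21 CPM in Sting KO, with no overlap (log2 difference 0.75, SE 0.214, adjusted p = 0.332). RLTR6B_Mm stood at 5.27, 4.91 and 4.94 CPM in DKO and at 3.51 and 3.9 CPM in Sting KO (0.44, SE 0.148, adjusted p = 0.502).

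The interaction asked whether the effect of Dnmt3a loss differed with and without Sting. It gave 0 calls of 94 members, beside 0.109% higher and 0.328% lower of all TE subfamilies (edgeR), with 2 members under an unadjusted p of 0.05 and 0 called by DESeq2. RLTR14_RN (0.51, SE 0.206, adjusted p = 0.919) and RLTR48B (0.66, SE 0.309, adjusted p = 0.986) had the smallest p-values. The c-kit+ groups also differed in cell markers: 7 macrophage genes summed to 1306 to 1420 CPM in WT and to 312 to 559 CPM in the other genotypes, and 5 late neutrophil genes to 5590 to 9930 CPM in WT and 9770 to 27818 CPM in the others. Their part in the member levels was not tested.

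Within 1 genotype of c-kit+ cells, a few ERV1 members were among the TE subfamilies that varied most. Among 394 subfamilies with a mean of at least 5 CPM, 24 of them members, the SD between libraries of a genotype had a median of 0.104 log2 units over all and 0.135 over the members. MER34B-int (1.32) and MMERGLN-int (1.12) had the widest spread of all 394, SRV_MM-int of the ERVK family (0.749) was the third, MMVL30-int (0.678) was the fourth and MMERGLN_LTR (0.628) the fifth. RLTR41 (0.506), LTRIS3 (0.364) and RLTR6-int (0.321) followed among the members. RLTR24 (0.0568), RMER21A (0.0685) and RLTR14-int (0.0833), by contrast, lay below the median. These libraries were otherwise alike, with r from 0.989 to 0.993 between libraries of a genotype on log2 TE values, across subfamilies. This description was chosen after the values were seen.

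**Figure D4:**
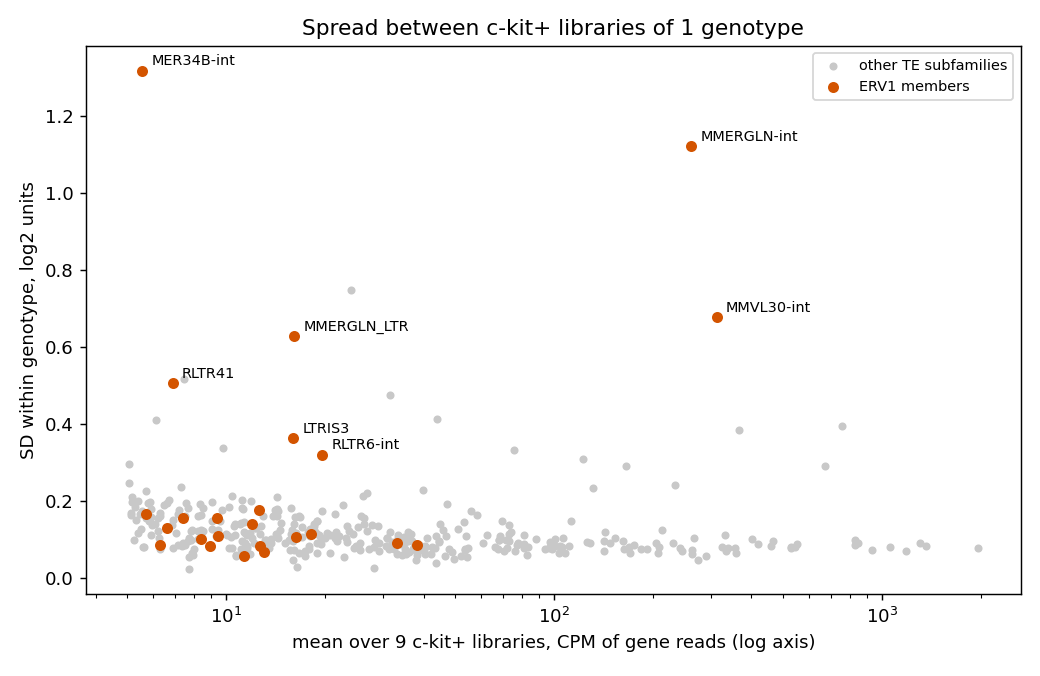
Mean level (x axis, CPM, log axis) against the SD between libraries of 1 genotype (y axis, log2 units) for 394 TE subfamilies in the 9 c-kit+ libraries, with the 24 ERV1 members in orange. MER34B-int (1.32) and MMERGLN-int (1.12) lie highest, and most members lie with the other subfamilies near 0.1.

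MMERGLN-int, the second member by reads, differed widely between libraries of a group. Its group means were 6248 to 10626 reads per 1e6 TE reads in the 4 c-kit+ groups and 742 to 3579 in the 8 sorted groups. In c-kit+ cells the WT libraries held it at 152 and 252 CPM, those of Dnmt3a KO at 308 and 466, those of Sting KO at 81.2 and 418 and those of DKO at 232, 70.7 and 379. Sting KO 1 and DKO 2 were the 2 lowest. The same 2 libraries were lowest for MMERGLN_LTR, its LTR, at 229 and 254 reads per 1e6 TE reads, against 348 to 661 in the other 7. In the sorted WT populations the order of the libraries by replicate number recurred. WT 3 was lowest and WT 4 highest in all of them: 268 and 3393 reads per 1e6 TE reads in LT-HSC, 385 and 2871 in ST-HSC, 704 and 4004 in CMP/GMP, and 637 and 6030 in MEP. Highest and lowest differed 12.7-fold in LT-HSC WT, 7.45-fold in ST-HSC WT, 5.69-fold in CMP/GMP WT and 9.46-fold in MEP WT. Among KO libraries, KO 1 was lowest in all 4 populations, at 801, 556, 965 and 919 (KO 3 in MEP stood at 923), and the highest was KO 3 in LT-HSC and KO 2 in the others. For MMERGLN_LTR, WT 3 was lowest and WT 4 highest in CMP/GMP and MEP, but not in the stem cells. In LT-HSC its lowest was WT 1 (153) and its highest WT 2 (400). In ST-HSC its lowest was WT 3 (156) and its highest WT 1 (356). The labels do not say what a replicate number shares, and the pattern of MMERGLN-int was noticed in the data, so it carries no test.

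**Figure D5:**
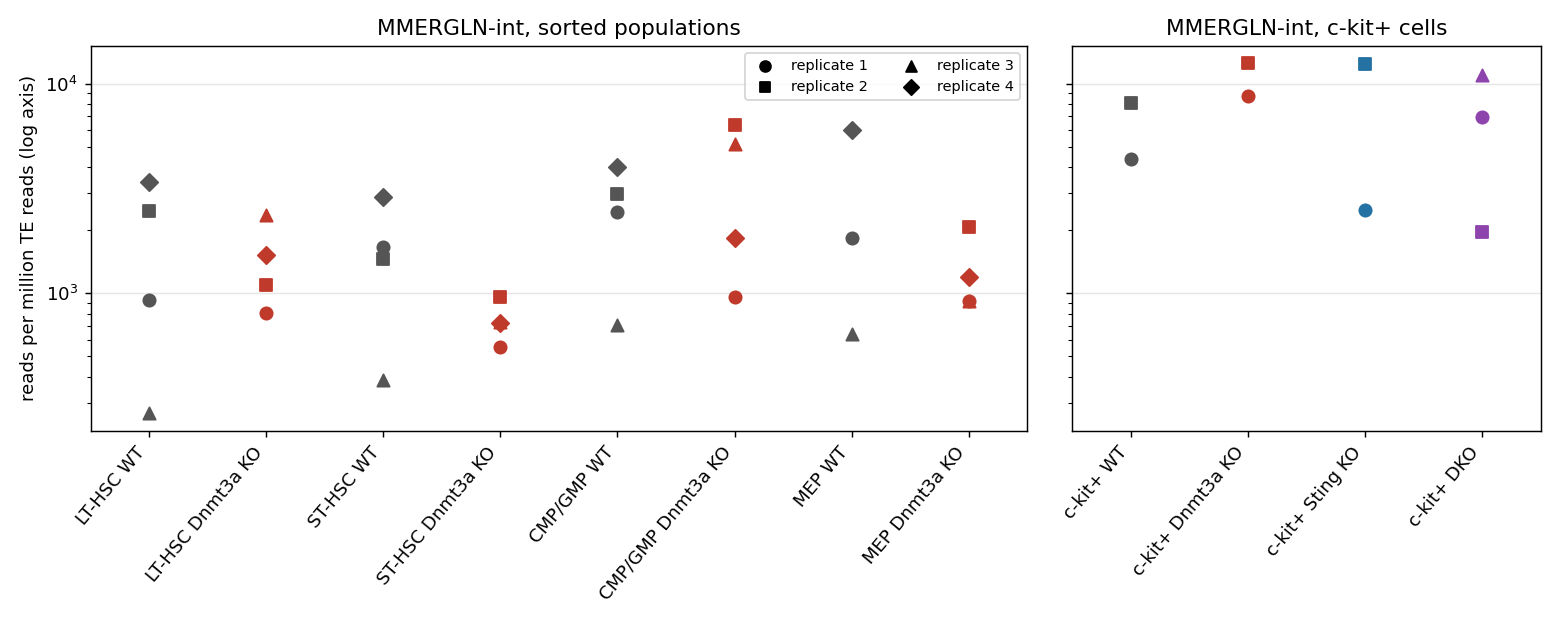
MMERGLN-int reads per 1e6 TE reads (log axis) in every library, with the marker shape giving the replicate number and the colour the genotype. WT replicate 3 (triangle) is lowest and WT replicate 4 (diamond) highest in each sorted population, and c-kit+ values span 1957 to 12506.

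The remaining leading members were steadier across groups. Group means of RMER5 ranged from 589 (MEP KO) to 1269 (ST-HSC WT) reads per 1e6 TE reads, those of MLTR14 from 563 (MEP KO) to 992 (c-kit+ WT), those of LTRIS2 from 241 (MEP KO) to 392 (c-kit+ Dnmt3a KO) and those of RLTR14 from 119 (MEP KO) to 367 (DKO). MEP KO was the lowest group for each of these 4, while its libraries overlapped the next group in each case. LTRIS3 ranged from 160 (LT-HSC KO) to 535 (DKO). For MMVL30-int the order of group means ran from MEP WT (19281 ± 6038, SD, n = 3) and MEP KO (13794 ± 18365, n = 4) through CMP/GMP WT (12051 ± 3819, n = 4), the c-kit+ groups and CMP/GMP KO down to LT-HSC KO (2335 ± 1189, n = 4), LT-HSC WT (1928 ± 828, n = 4), ST-HSC WT (1743 ± 400, n = 4) and ST-HSC KO (1548 ± 710, n = 4). Neighbours in this order overlapped, except c-kit+ Sting KO above c-kit+ Dnmt3a KO and the latter above LT-HSC KO.

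Genes that silence or restrict retroviruses were read from 3 lists: 29 genes of ERV silencing, 14 of retroviral restriction and 4 gammaretrovirus receptors. All 47 were tested. Dnmt3a KO called 0 of them in LT-HSC, CMP/GMP and MEP, where edgeR called 0% of all genes, and DESeq2 called 0, 3 and 1. The shares DESeq2 called over all genes are not given here, so its counts are not read as particular to the lists. In WT CMP/GMP against LT-HSC, 3 of 29 silencing genes, 1 of 14 restriction genes and 0 of 4 receptors were called. That is near the 8.74% of all genes called, so the lists did not stand out. Uhrf1 and Dnmt1, which maintain methylation, rose by 1.56 (SE 0.277) and 1.18 (SE 0.249) on the log2 scale. Fam208a, a subunit of the HUSH silencing complex, fell by 2.28 (SE 0.497), and Ifitm3, a membrane protein that blocks virus entry, fell by 0.92 (SE 0.24). In WT MEP against LT-HSC, 3 of 29 silencing genes, 2 of 14 restriction genes and 0 of 4 receptors were called, again near the share over all genes (13.2%). Dnmt3a fell by 1.62, Dnmt3b by 1.64, Fam208a by 1.74, Trim30a by 1.83 and Ifitm3 by 2.61. MEP and CMP/GMP differed in 1 listed gene, Ifitm3 (3.47% of all genes called), which fell by 1.68. None of the 4 receptors was called, by edgeR, in any comparison. The 2 most abundant of them in c-kit+ cells, Slc7a1 and Slc20a1, stood at 122 to 154 CPM and 105 to 228 CPM there.

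In c-kit+ cells the listed genes called were Dnmt3a, itself deleted, and the restriction genes Apobec3, Adar and Trim30a. Apobec3 (chromosome 15, 79892058 to 79918218, GRCm38.p6) encodes a deaminase that mutates retroviral DNA. Its WT libraries held 68.8 and 69.1 CPM, those of Dnmt3a KO 235 and 220, those of Sting KO 227 and 221 and those of DKO 193, 181 and 155. Every knockout library was above WT. It rose by 1.72 (SE 0.116, edgeR adjusted p = 0.000783) in Dnmt3a KO, where Adar rose by 0.71 and Dnmt3a fell by 0.81 (0.57% of all genes called), and by 1.74 (SE 0.116, adjusted p = 0.000342) in Sting KO (0.777% called). Its interaction was -2.07 (SE 0.152, adjusted p = 0.00211; 0.15% called). DKO was lower than Dnmt3a KO in Trim30a by 0.84 and Adar by 0.63 on the log2 scale (0.157% called), and 0 listed genes were called against Sting KO (0% called). DESeq2 called 1 listed gene against Sting KO, and its share over all genes is not given here. The F-test over populations called 0 listed genes and 0.0186% of all genes. Trim28 and Setdb1, the core of the KRAB pathway, were not called by edgeR in any comparison and stood at 374 to 458 CPM and 112 to 129 CPM in c-kit+ cells.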

How the data were processed

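Per the labels' protocols, a variant of SMART-Seq2 was used on polyadenylated RNA. The authors deposited raw read counts per gene and per TE subfamily. Per the submitters' processing notes, Trim Galore 0.6.7, HISAT2, featureCounts 2.0.1, DESeq2 1.34.0 and mm10 were used. Which TE annotation was used and how multi-mapping reads were counted is not given in the sources, and near-identical subfamilies may share reads. Of 40 gene columns, 8 share the ST-HSC WT names in duplicate and were left out, so ST-HSC was scaled by TE totals.

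The quasi-likelihood test of edgeR (4.0.16, in R 4.3.3) was run on the counts (filterByExpr, minimum count 10, minimum total count 15; TMM factors and library sizes of gene counts) over all TE subfamilies or genes. P-values were adjusted by Benjamini-Hochberg and called under 0.05. Each sorted population, the WT sorted populations and the 9 c-kit+ libraries were separate fits. The scripts were tested on simulated counts. Positions are those of the GRCm38.p6 gene table. Libraries were grouped by the labels.

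Named were the 10 members with the most TE reads, up to 5 called members per direction and comparison (the 2 of smallest p where none was called), MURVY rows, and up to 3 called genes per list and direction. Members and lists were chosen with earlier results of these data known. Alternatives were DESeq2 1.42.0, RLE factors, no filter, TE library sizes, a block for the replicate number, a fit of the compared groups alone, and leaving out each library.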

Additional observations from a re-analysis of the deposited data

Results flagged for a closer look

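The 10 leading members and the sum of all members were tested in each group of 4 libraries, which made 77 tests. In 8 of them a library lay far from the other 3, while chance flags about 1 in 20 of independent tests. These tests share libraries and TE totals, so that rate is no measure for them. All values are reads per 1e6 TE reads. MEP KO 1 was flagged in 3 members: MMVL30-int at 41040 (next library 8559), RLTR6-int at 4122 (next 240.9) and RLTR1B-int at 2553 (next 525.5). It was also the MEP KO library with the fewest TE reads relative to gene reads, at 2.22 per 100 gene reads. Scaled to gene reads, KO 1 did not stand apart in MMVL30-int (911 CPM, KO 2 at 975) or RLTR1B-int (56.7 CPM, KO 2 at 59.9), but it did in RLTR6-int (91.6 CPM, the others 18.9 to 22.7). RMER5 was high in CMP/GMP WT 1, at 1185 (next 987.9), and RLTR6-int was low in CMP/GMP KO 4, at 414.1 (next 1278). RLTR1B-int was high in LT-HSC WT 1, at 301.7 (next 240.3), and LTRIS2 in LT-HSC KO 2, at 364.5 (next 312.7); both libraries held over 12 TE reads per 100 gene reads. The sum of all members was low in ST-HSC KO 2, at 9795 (next 11250).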

How the results depend on the processing

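Of 352 recomputed counts of calls, 275 stayed within 1.5 times the main count and 77 moved. Shares called over all TE subfamilies, or over all genes for the gene lists, are not given beside the counts below. The counts show only how far the calls moved. Called ERV1 members numbered, by alternative, as follows. With DESeq2 they were 3 in MEP KO, 20, 15 and 2 in WT CMP/GMP against LT-HSC, MEP against LT-HSC and MEP against CMP/GMP. RLE factors gave 5 and 1 in the first 2 of these. No filter gave 1 in MEP KO and 1 in MEP against CMP/GMP, and TE library sizes 1 in the latter. Fitting only the 2 groups gave 5 in c-kit+ Dnmt3a KO and 1 in Sting KO. Added after seeing the data, a term for sex gave 1 in MEP KO, 9 in CMP/GMP against LT-HSC and 1 in MEP against CMP/GMP, and summing near-identical pairs 0 in CMP/GMP and 1 in MEP against LT-HSC. Without libraries high in TE reads (over 9 per 100 gene reads) the counts were 3, 4 and 2 in the WT comparisons in the same order. That setting leaves MEP KO 1 alone in its group, so no count is given for MEP KO or the F-test over populations.

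The replicate block gave 1 in MEP KO, 1 in DKO against Sting KO, and 3, 5 and 2 in the WT comparisons. The labels do not say that a number marks a pairing. Deviations of same-numbered libraries from their group means correlated from -0.24 to 0.33 over all pairs of groups examined. No groups tested against each other were above 0.1 at every number. LT-HSC KO and ST-HSC KO, not tested against each other, were above it at every number (0.236, 0.327, 0.257 and 0.189). For c-kit+ Dnmt3a KO and Sting KO, also not tested against each other, r was 0.183. Each of these groups has 2 libraries, so both replicate numbers must give the same r, and it is no recurrence.

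Leaving out 1 library gave 0 to 17 in MEP KO, 0 to 1 in c-kit+ Dnmt3a KO, Sting KO and DKO against Sting KO, 0 to 20, 0 to 14 and 0 to 2 in the WT comparisons, 0 to 7 in the F-test, and 0 in LT-HSC, ST-HSC and CMP/GMP KO, DKO against Dnmt3a KO, the interaction and ST-HSC against LT-HSC. For the gene lists, also added after seeing the data, DESeq2 called 3 in CMP/GMP KO, 1 in MEP KO, 6 in c-kit+ Dnmt3a KO, 1 in DKO against Sting KO, 3 in the interaction and 10 in CMP/GMP against LT-HSC; leaving out 1 library gave 0 to 14 in MEP KO (14 without KO 1), 1 to 4 in c-kit+ Dnmt3a KO, 0 to 2 in DKO against Dnmt3a KO, 0 to 1 against Sting KO, 1 to 2 in the interaction, and 1 to 8, 2 to 7 and 1 in the WT comparisons.

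Differences that were not called also changed sign, on the log2 scale. Leaving out 1 library, MMVL30-int spanned -0.14 to 0.61 in LT-HSC KO, -0.53 to 0.22 in MEP KO (0.002 without KO 3), -0.47 to 0.049 in ST-HSC KO, -1.08 to 0.23 in c-kit+ Dnmt3a KO, -0.55 to 0.76 in Sting KO (0.76 without WT 1, 0.04 without KO 1), -0.36 to 0.63 in DKO against Sting KO and -0.43 to 0.012 in ST-HSC against LT-HSC. MER34B-int spanned -0.24 to 3.80 in c-kit+ Dnmt3a KO. In MEP KO, MMVL30-int was 9e-04 with pairs summed and 0.30 without libraries high in TE reads, where RLTR6B_Mm was -0.39; with a term for sex MMVL30-int was 0.20 in c-kit+ Dnmt3a KO. The cause was not tested. Depth limits the 32 members under 100 reads in total.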
